A study of Homo sapiens with 4 samples.

Results

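The TCA cycle and 2-oxoacid dehydrogenase genes were followed in 2 human endometrial cancer cell lines after silencing of Efp. The set holds 38 listed genes of the cycle, of the pyruvate, 2-oxoglutarate and branched-chain dehydrogenase complexes and of anaplerosis, and a member counted as measured when a probe set carried its symbol alone. By this rule 35 of the 38 were measured, each by 1 probe set, out of 18417 genes on the array. PDP2, FH and GLUD1 had no such probe set. The set was drawn up because DLST was more than 2-fold lower with siEfp in both lines, so the siEfp differences of its members are given below as a description and without a test.

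Expression was measured on 4 Affymetrix arrays, 1 for each of Ishikawa with siControl, Ishikawa with siEfp, HEC-1A with siControl and HEC-1A with siEfp. Both are established endometrial adenocarcinoma lines, and of these Ishikawa has the estrogen receptor ERα and HEC-1A lacks it. Both were grown in DMEM with serum and transfected with siRNA, and 150 ng of total RNA was labelled per array. The Ishikawa cells received siEfp #A for 48 h, while for HEC-1A neither the duplex nor the time is given in the sources used here. Values are RMA signals on the log2 scale, in which a difference of 1 is 2-fold, and a siEfp difference is the siEfp array minus the siControl array of the same line. Such a difference rests on 1 array each, has no replicate check, and is only as precise as this number of arrays allows.

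TRIM25, the gene of Efp, went from 9.42 to 7.96 in Ishikawa cells and from 9.50 to 7.93 in HEC-1A cells, the direction that the labels give. Over all genes the siEfp and siControl arrays had a Pearson r of 0.991 in Ishikawa and 0.993 in HEC-1A, across genes, which are not independent replicates. The middle 95% of all differences lay between -0.70 and 0.51 in Ishikawa and between -0.55 and 0.49 in HEC-1A. Epithelial markers were above the array median in 7 of 7 genes in Ishikawa and 5 of 7 in HEC-1A, where CDH1 (4.07 and 3.74) and MUC1 (5.54 and 5.70) were dim. Endothelial markers were below the array median on every array, as were stromal markers apart from COL1A1 and immune markers apart from CD68 in HEC-1A.

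The TCA cycle oxidises acetyl groups in the mitochondrial matrix and supplies reducing power to the respiratory chain, and its intermediates feed the synthesis of lipids, amino acids and glucose. Carbon enters from pyruvate through the pyruvate dehydrogenase complex, and the 2-oxoglutarate dehydrogenase complex catalyses a later step of the cycle. These complexes and the branched-chain complex share one plan, with a thiamine-dependent decarboxylase, a core acyltransferase that carries lipoate on a swinging arm and a common dihydrolipoamide dehydrogenase. Anaplerotic enzymes such as pyruvate carboxylase refill the cycle when intermediates are withdrawn.

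Within the 2-oxoglutarate dehydrogenase complex, the core gene DLST stood apart from its partners. DLST encodes the lipoate-bearing succinyltransferase core (probe set 7975747), and its signal went from 8.72 to 7.47 in Ishikawa and from 8.78 to 7.61 in HEC-1A. Both siEfp arrays were below both siControl arrays, by 2.39-fold in Ishikawa and 2.26-fold in HEC-1A, and these are the values on which the set was chosen. Counted from the lowest difference, DLST ranked 64 of 18417 genes in Ishikawa and 29 in HEC-1A. A transcribed pseudogene of DLST exists, and whether its RNA reaches the same probes cannot be told from the values.

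OGDH, the thiamine-dependent subunit that feeds DLST, had signals of 10.59 with siControl and 10.13 with siEfp in Ishikawa, and of 9.86 and 9.58 in HEC-1A. It was lower with siEfp in both lines, by a log2 difference of -0.47 and -0.28, and inside the middle 95% of genes in both. OGDHL, a paralogue of OGDH with a narrower tissue distribution, read 7.77 and 7.81 in Ishikawa but 6.36 and 5.80 in HEC-1A. Its difference was thus 0.04 in one line and -0.56 in the other, and the HEC-1A siEfp value lay below the median gene signal of that array, 6.25. DLD, the dihydrolipoamide dehydrogenase that all of these complexes share, differed by -0.07 and 0.08.

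**Figure D1:**
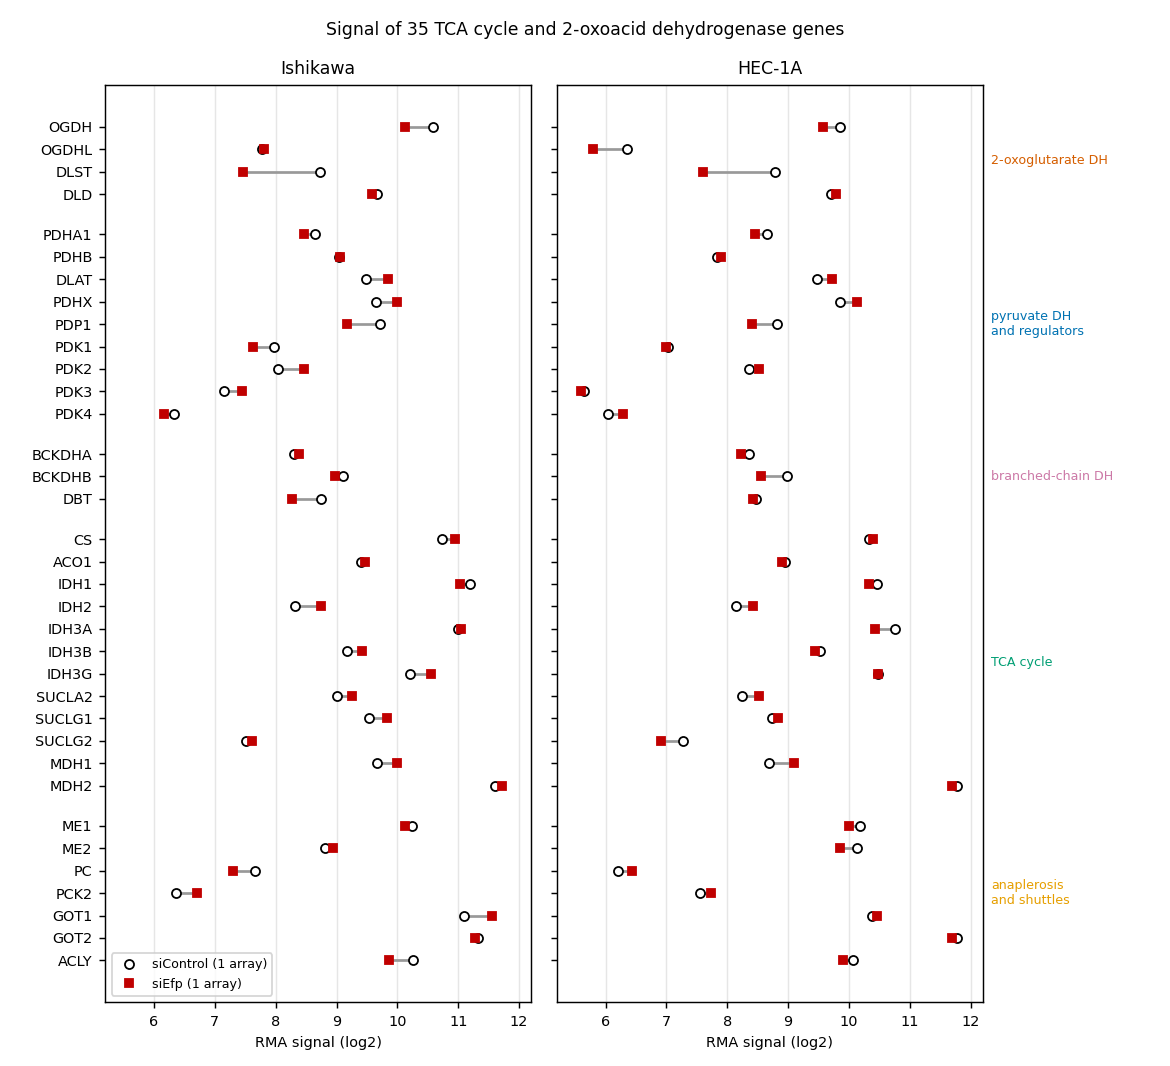
RMA signal (x axis, log2) of the 35 measured members (y axis, grouped by role) in Ishikawa (left) and HEC-1A (right), with open circles for the siControl array and red squares for the siEfp array, 1 array each. DLST has the longest line in both panels, from 8.72 to 7.47 and from 8.78 to 7.61, while the other members move by less than 0.6. Positions of different genes on the x axis are not to be compared, since each gene has its own probes.

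In the count past 2-fold DLST was alone. In Ishikawa 1 of 35 members was at least 2-fold lower, beside 0.804% of all genes and 1.17% of those with at least median signal, and 0 were at least 2-fold higher, beside 0.136%. In HEC-1A the counts were again 1 lower, beside 0.271% of all genes and 0.445% of those with at least median signal, and 0 higher, beside 0.103%. At 1.5-fold, where 3.72% of all genes were lower in Ishikawa and 2.04% in HEC-1A, DLST was still the sole member counted in either line. In both lines together 1 member, DLST, was at least 2-fold lower, beside 0.174% of all genes, and 0 members were higher, beside 0.0109%. Among the members outside the threshold in both lines, PDP1 came nearest, at -0.54 and -0.42, followed by OGDH. Since DLST is the reason for the set, its place in these counts was fixed by the choice.

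In the pyruvate dehydrogenase complex both lipoyl proteins had slightly higher signals with siEfp. DLAT, its acetyltransferase core, had signals of 9.49 and 9.85 in Ishikawa and of 9.47 and 9.73 in HEC-1A, siControl before siEfp. PDHX, the lipoyl protein that anchors dihydrolipoamide dehydrogenase to the core, had signals of 9.65 and 10.00 in Ishikawa and of 9.86 and 10.14 in HEC-1A. For both genes each siEfp array was the higher one of its line, with differences of 0.36 and 0.26 for DLAT and of 0.35 and 0.28 for PDHX. The decarboxylase subunits differed less, PDHA1 by -0.18 and -0.19 and PDHB by 0.02 and 0.06. All of these differences lay inside the middle 95% of genes.

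The regulators of the pyruvate complex went both ways. PDP1, the phosphatase that returns the complex to its active form, read 9.71 and 9.17 in Ishikawa and 8.82 and 8.40 in HEC-1A. It was lower with siEfp in both lines and, after DLST, had the lowest mean difference over the lines, at 1.45-fold and 1.34-fold. Of the inactivating kinases, PDK2 was higher in both lines, by 0.42 and 0.17, and PDK1, the HIF-responsive one, was lower in both, at -0.35 in Ishikawa and -0.04 in HEC-1A. PDK3 differed by 0.29 and -0.06 and PDK4 by -0.17 and 0.25, each with a sign of its own in each line. PDK4 was the only measured member with a mean signal below the median of all genes, and PDK3 was below the array median in HEC-1A, at 5.65 and 5.59.

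In the branched-chain complex, which degrades the keto acids of leucine, isoleucine and valine, 2 of the 3 subunits were lower in both lines. The share of all genes lower in both lines was 26.7%. DBT, the lipoyl core, had signals of 8.74 and 8.27 in Ishikawa and of 8.48 and 8.43 in HEC-1A, so that most of its difference was in Ishikawa (-0.46 against -0.04). BCKDHB had the reverse pattern, with -0.12 in Ishikawa and -0.42 in HEC-1A. BCKDHA differed by 0.08 and -0.12. All 3 lay inside the middle 95% of genes in both lines.

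**Figure D2:**
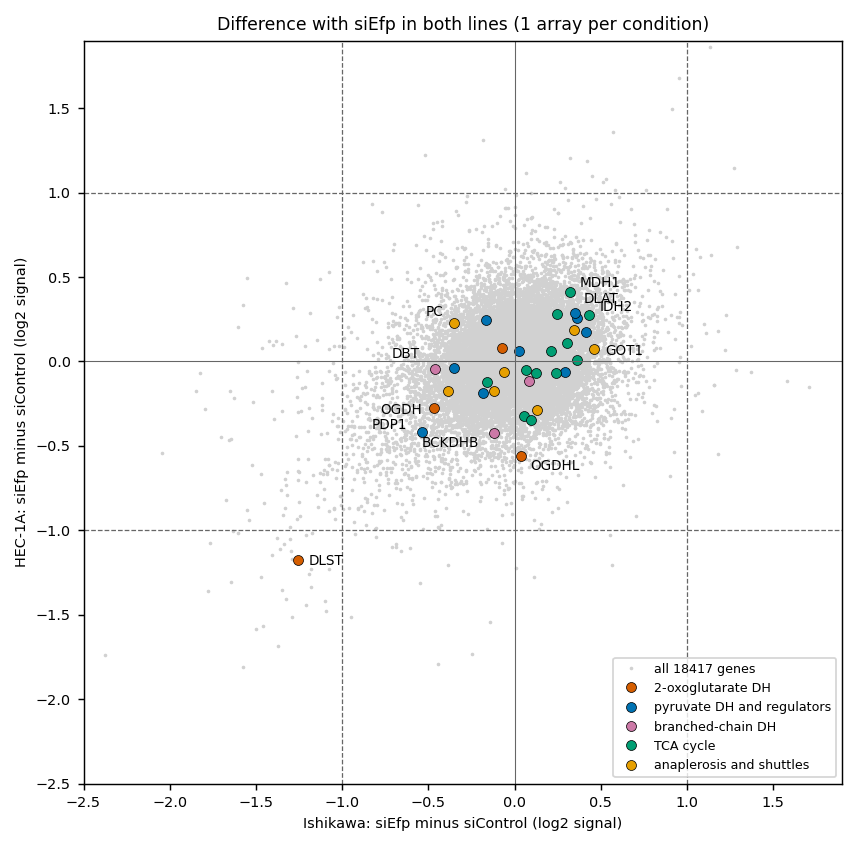
Difference between siEfp and siControl (log2 signal) in Ishikawa (x axis) and HEC-1A (y axis), 1 array per condition, for all 18417 genes (grey) and the 35 measured members (coloured by role). Dashed lines mark 2-fold; DLST lies past both at -1.26 and -1.17, and every other member lies within them.

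Genes of the TCA cycle enzyme list were mostly higher with siEfp in Ishikawa cells, and evenly divided in HEC-1A cells. The list includes the cytosolic ACO1, IDH1 and MDH1 and the NADP-dependent IDH2, while succinate dehydrogenase genes were on another list. Of 12 measured, 11 were higher in Ishikawa with a median of 0.23, while 6 were higher and 6 lower in HEC-1A with a median of -0.02. Over all genes the medians were 0.01 in both lines, and 47.6% of genes in Ishikawa and 47.7% in HEC-1A were lower. The differences were small in size, from -0.16 to 0.43 in Ishikawa and from -0.35 to 0.41 in HEC-1A, and all of them were inside the middle 95% of genes. The difference between the lines was not tested, since each rests on 1 pair of arrays.

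Among the single enzymes, those higher in both lines by at least 0.2 were IDH2, SUCLA2 and MDH1. IDH2, the mitochondrial NADP-dependent isocitrate dehydrogenase, read 8.32 and 8.75 in Ishikawa and 8.14 and 8.42 in HEC-1A. MDH1, the cytosolic malate dehydrogenase of the malate-aspartate shuttle, read 9.66 and 9.99 in Ishikawa and 8.69 and 9.10 in HEC-1A. SUCLA2, the ADP-forming subunit of succinyl-CoA synthetase, which acts directly after the DLST step, had differences of 0.24 and 0.28. Its partner subunit SUCLG1 was at 0.30 and 0.11, and the GTP-forming subunit SUCLG2 at 0.09 and -0.35.

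The subunits of the NAD-dependent isocitrate dehydrogenase, which makes the substrate of the 2-oxoglutarate complex, were higher in Ishikawa in every case, IDH3G by 0.36, IDH3B by 0.24 and the catalytic IDH3A by 0.06. In HEC-1A they were at 0.01, -0.07 and -0.32. Citrate synthase, CS, was at 0.21 and 0.06, and the mitochondrial malate dehydrogenase MDH2 at 0.13 and -0.07. The cytosolic enzymes ACO1, an aconitase that is also an iron regulatory protein, and IDH1 were at 0.07 and -0.05 and at -0.16 and -0.12. IDH1 was the gene of the TCA cycle enzyme list that was lower in both lines.

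Genes that feed or drain the cycle had no common direction, with 4 of 7 lower in each line. The share of all genes that were lower was 47.6% in Ishikawa and 47.7% in HEC-1A. GOT1, the cytosolic aspartate aminotransferase, was the highest member in Ishikawa at 0.46, from 11.09 to 11.55, against 0.07 in HEC-1A. ACLY, which splits exported citrate into the acetyl-CoA used for lipid synthesis, was lower in both lines, at -0.39 and -0.17. PC, pyruvate carboxylase, read 7.66 and 7.30 in Ishikawa and 6.20 and 6.43 in HEC-1A, so it was lower with siEfp in one line and higher in the other. PCK2, the mitochondrial phosphoenolpyruvate carboxykinase, was at 0.34 and 0.19 and the malic enzymes ME1 and ME2 at -0.12 and -0.18 and at 0.13 and -0.29. GOT2, the mitochondrial aminotransferase, differed by -0.06 and -0.07.

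Across the set as a whole, 14 members were lower and 21 higher in Ishikawa (median 0.07), and 20 were lower and 15 higher in HEC-1A (median -0.05). Both medians were the same without DLST. In both lines together 11 members were lower, beside 26.7% of all genes, and 12 were higher, beside 31.1%, which as shares of the 35 are 31.4% and 34.3%. The remaining 12 (34.3%) had opposite signs in the lines, beside 41.8% of all genes. Among the 9209 genes of at least median signal, to which all members but PDK4 belong, the shares were 32.9% and 31.3%. The members' shares were near this background. Over 34 members without DLST the differences of the 2 lines had a Pearson r of 0.48, against 0.52 over genes of at least median signal, given as a description, since the arrays may have been normalized together. With a size of at least 0.2 asked for in both lines, 3 members were lower (DLST, OGDH and PDP1) and 5 higher (DLAT, PDHX, IDH2, SUCLA2 and MDH1), or 8.57% and 14.3%, where genes of at least median signal gave 10.8% and 7.28%.

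Genes outside the set, of the same and adjoining pathways and of mitochondrial content, were described from lists drawn up by function. None of 60 measured genes was 2-fold different in either line, where 0.804% of all genes were 2-fold lower in Ishikawa and 0.271% in HEC-1A. The shares at least 2-fold higher were 0.136% and 0.103%. As background for the list counts, 26.7% of all genes were lower in both lines and 31.1% higher. Among genes of at least median signal these shares were 32.9% and 31.3%. The lipoate list held enzymes that make and attach the cofactor of DLST, DLAT and DBT, and iron-sulfur proteins (NFU1, ISCA2, IBA57, BOLA3 and GLRX5). It had 5 of 9 genes lower in both lines and medians of -0.15 and -0.13. Its lowest genes were LIPT2, an octanoyltransferase of the first step, at -0.35 and -0.33, and LIAS, lipoic acid synthase, at -0.27 and -0.20. NFU1, an iron-sulfur carrier, had its highest mean over the lines, at 0.21 and 0.25. The thiamine transporter gene SLC19A2 was at -0.29 and -0.27, and SLC19A3 at -0.31 and -0.11 with dim signals.

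Other enzymes of 2-oxoacid and branched-chain metabolism had 7 of 12 genes lower in both lines, beside 26.7% of all genes, with medians of -0.13 and -0.16. PDPR, the regulatory subunit of pyruvate dehydrogenase phosphatase, was at -0.29 and -0.30, the same direction as the catalytic subunit gene PDP1. IVD, isovaleryl-CoA dehydrogenase of leucine breakdown, was at -0.48 and -0.15, and BCKDK, the kinase of the branched-chain complex, at 0.42 and 0.02. BCAT2, the mitochondrial branched-chain aminotransferase, named after its values were seen, was the list's lowest gene in HEC-1A at -0.57, against 0.04 in Ishikawa. Beside 26.7% and 31.1% of all genes, 3 of 10 remaining cycle and anaplerosis genes were lower and 2 higher in both lines. NNT, the transhydrogenase that makes mitochondrial NADPH, was the lowest of them, from 9.60 to 8.85 in Ishikawa and from 7.88 to 7.39 in HEC-1A. The succinate dehydrogenase subunits SDHC and SDHD were at -0.01 and 0.28 and at -0.15 and -0.10.

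Carriers of cycle intermediates were higher in 8 of 9 genes in Ishikawa (median 0.21) and in 6 of 9 in HEC-1A (median 0.04). Of all genes 47.6% were lower in Ishikawa and 47.7% in HEC-1A, with medians of 0.01. SLC25A11, the carrier that exchanges 2-oxoglutarate for malate across the inner membrane, had the largest difference of the list, from 10.25 to 11.20 in Ishikawa and from 9.66 to 9.93 in HEC-1A. In Ishikawa it was 0.95 higher, above the middle 95% of genes. The pyruvate carrier genes MPC1 and MPC2 were higher in both lines, at 0.16 and 0.23 and at 0.21 and 0.15. Genes of mitochondrial content had medians of -0.03 and 0.01 over 18 genes, with TOMM20, an import receptor of the outer membrane, lowest at -0.86 and -0.31.

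**Figure D3:**
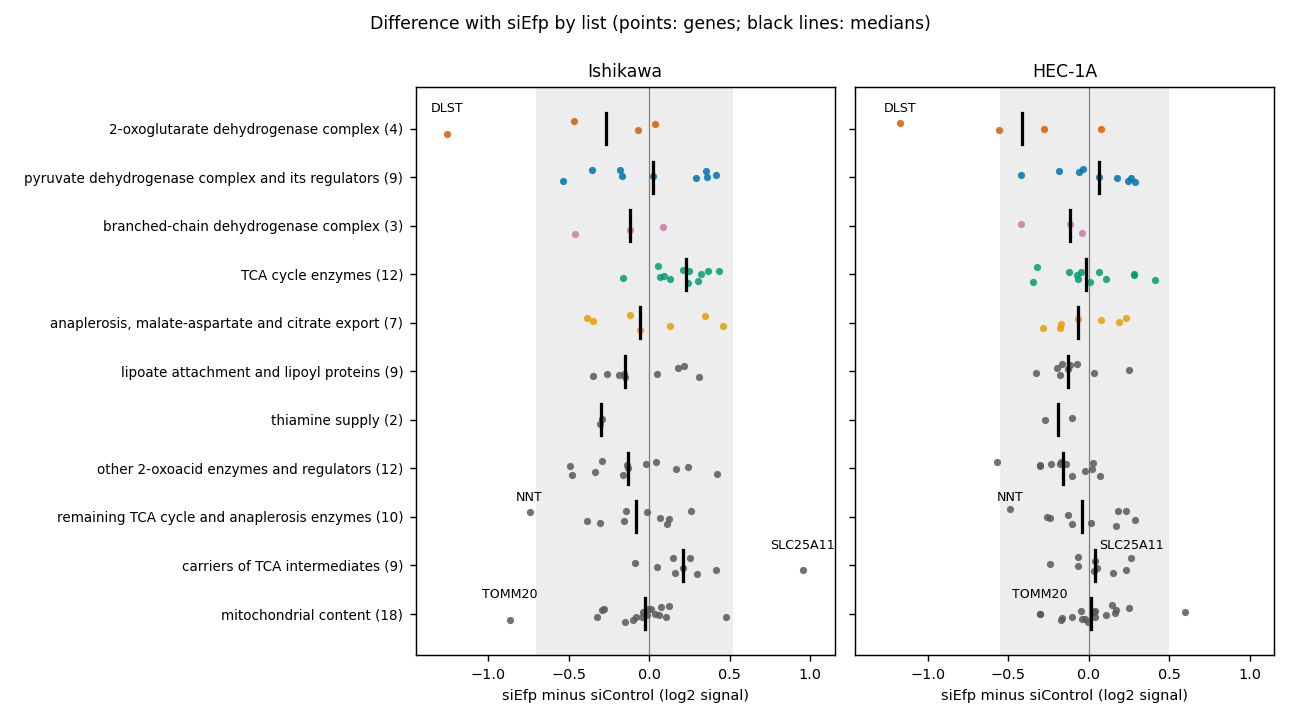
Difference between siEfp and siControl (x axis, log2 signal, 1 array per condition) of the genes of 11 lists in Ishikawa (left) and HEC-1A (right), with the number of measured genes in brackets. Points are genes (coloured for members), black lines are list medians and the grey band holds the middle 95% of all genes; DLST lies outside the band in both lines, OGDHL just outside it in HEC-1A, SLC25A11, NNT and TOMM20 outside it in Ishikawa alone, and BCAT2 and TWNK outside it in HEC-1A alone.

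The members were then compared between the lines themselves, a contrast that the choice of the set did not use. Ishikawa minus HEC-1A was tested with limma over all 4 arrays, with the siRNA as a term, and p-values were adjusted over all 18417 genes (Benjamini-Hochberg). Each line has 2 arrays that differ in siRNA, which leaves 1 residual degree of freedom. That residual is the gap between the siEfp differences of the 2 lines, with the spread moderated over all genes. The p-values thus set the line difference against this gap, measure no replicate spread, and describe these arrays of 2 lines alone. Of 35 members 15 were higher in Ishikawa (42.9%), beside 17.0% of all genes, and 3 were higher in HEC-1A (8.57%), beside 18.3%. Together 18 members were called, beside 35.2% of all genes. Among genes of at least median signal the shares were 21.2% and 27.1%. With 1 array left out, and with it the siRNA term, the share of members called higher in Ishikawa was 11.4% (4 members) beside 7.69% of all genes without the HEC-1A siControl array, and 20.0% (7 members) beside 7.84% without the HEC-1A siEfp array. It was 28.6% (10 members) beside 10.6% when either Ishikawa array was left out, so the members came nearest to the background without the HEC-1A siControl array. Without the siRNA term, these fits on fewer arrays mix siEfp differences into the line difference. With all 4 arrays the median line difference of the members was 0.26, against -0.01 over all genes.

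OGDHL and PDK3 had the largest line differences of the set. OGDHL was 1.71 ± 0.17 higher in Ishikawa (log2 difference ± SE, limma adjusted p = 0.000445), and its 7.77 and 7.81 in Ishikawa did not overlap with 6.36 and 5.80 in HEC-1A. PDK3 was 1.67 ± 0.14 higher (limma adjusted p = 0.000217). PDHB, the beta subunit of the pyruvate decarboxylase, read 9.04 and 9.06 in Ishikawa against 7.83 and 7.89 in HEC-1A, 2.28-fold higher (limma adjusted p = 0.000520), while its partner PDHA1 showed a difference of 0.00 with a 95% interval from -0.29 to 0.29. PC was 1.16 ± 0.17 higher in Ishikawa (limma adjusted p = 0.00218).

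Genes of the TCA cycle enzyme list accounted for 7 of the 15 members higher in Ishikawa, and among these 7 MDH1, IDH1 and ACO1 are cytosolic. MDH1 was higher by 0.93, SUCLG1 by 0.90, SUCLA2 by 0.74, IDH1 by 0.72, ACO1 by 0.52, CS by 0.48 and SUCLG2 by 0.47, with limma adjusted p from 0.00154 for MDH1 to 0.0499 for SUCLG2. IDH3A, at 0.43, missed the threshold with an adjusted p of 0.0552. The others were the complex and regulator genes OGDH (0.64), PDP1 (0.82) and PDK1 (0.79), and GOT1 (0.90).

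The 3 members higher in HEC-1A were all enzymes around the cycle. ME2, the mitochondrial malic enzyme, read 10.14 and 9.86 in HEC-1A against 8.81 and 8.95 in Ishikawa, a difference of -1.12 ± 0.15 (limma adjusted p = 0.00150). PCK2 read 7.56 and 7.74 in HEC-1A against 6.36 and 6.71, also -1.12 (limma adjusted p = 0.000783). GOT2 differed by -0.43 (limma adjusted p = 0.0318). The mitochondrial and cytosolic aspartate aminotransferases thus differed between the lines in opposite directions, as did PC and PCK2.

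DLST was not past the threshold between the lines. Its difference was -0.10 with a 95% interval from -0.39 to 0.19 (limma adjusted p = 0.603). The other lipoyl genes DLAT, PDHX and DBT were at 0.08, -0.17 and 0.05, and DLD at -0.12, none past the threshold, with intervals that lay between -0.46 and 0.40.

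Only 6 of the 18 calls, OGDHL, PDHB, PDK3, PC, ME2 and PCK2, held in every alternative. A call lost when an array was left out need not mean a weak line difference, since siEfp differences then enter the estimate. For DLST the line difference was -0.10 with all arrays. It was -0.73 without the Ishikawa siControl array and 0.53 without the Ishikawa siEfp array. PPARGC1A, a coactivator of mitochondrial gene expression on the mitochondrial content list, read 9.14 and 9.61 in Ishikawa against 3.87 and 3.87 in HEC-1A. TFAM, which maintains mitochondrial DNA, was lower in Ishikawa, with a difference of -1.60 (limma adjusted p = 0.000239). Their part in the line differences of the members was not tested.

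**Figure D4:**
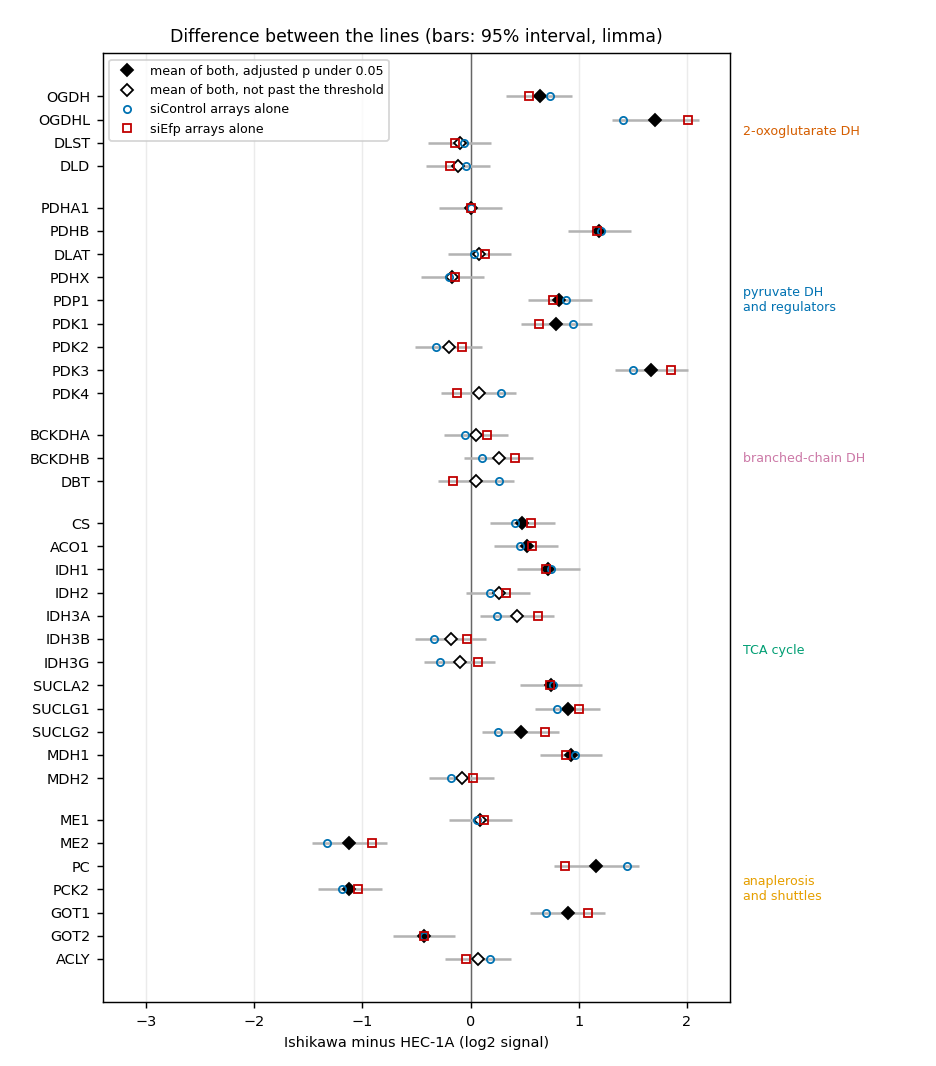
Ishikawa minus HEC-1A (x axis, log2 signal) of the 35 measured members (y axis, by role). Diamonds are the mean over siControl and siEfp arrays, filled where the limma adjusted p was under 0.05, bars are 95% intervals, blue circles are the siControl arrays alone and red squares the siEfp arrays alone; OGDHL (1.71) and PDK3 (1.67) lie furthest to the right, and ME2 and PCK2 (both -1.12) furthest to the left.

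Start sites of the members were searched for short motifs known from promoters of nuclear genes for mitochondrial proteins, to show what the sequence around DLST shares with the rest of the set. RefSeq (GRCh38.p14) gave 47 windows of 300 bases, from 250 before to 50 after a start site, for 36 of the 38 listed genes, with none for OGDH and PDP1. The ETS core CCGGAAG, on either strand, was found in 5 member windows (10.6%), against 10.3% of 35116 windows of all genes. DLST was 1 of these 5 genes, and the stretch of each is shown 5′ to 3′ on the gene's strand with the match in capitals.
DLST: ggcccgccccaCTTCCGGttgttgtccggc
MDH2: ctttccgactcCCGGAAGtggccgtgatct
ME2: gtgggccacgcCTTCCGGgccccgcggctg
IDH3B: ctcagtacaggCCGGAAGtcggggtacggg
IDH3G: tgctctaggcgCCGGAAGggggcgtgaatc

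These stretches lie at chr14:74881883-74881912 (plus strand) for DLST, chr7:76047982-76048011 (plus) for MDH2, chr18:50879065-50879094 (plus) for ME2, chr20:2664238-2664267 (minus) for IDH3B and chrX:153794449-153794478 (minus) for IDH3G, and in DLST the match begins 22 bases before the start site. MDH2 has 2 matches, of which the first is shown. The siEfp differences of the 5 genes had no common sign, from -1.26 for DLST to 0.36 for IDH3G in Ishikawa. The NRF1 palindrome was found in 12.8% of member windows, against 8.32% of all windows, and not in that of DLST. The SP1 box GGGCGG was found in 70.2%, against 45.0%, and the CCAAT box in 59.6%, against 34.6%. The YY1 motif was found in 6.38%, which is only 3 of 47 member windows, against 1.20%. All were counted on both strands. For DLST the SP1 box was found, and the CCAAT box and the YY1 motif were not. Against windows of protein-coding genes alone the shares were 12.8% for ETS, 10.6% for NRF1, 56.3% for SP1, 34.7% for CCAAT and 1.68% for YY1. The windows of 1 gene overlap in part and letters alone do not show binding, so the shares are a description, and the motifs were chosen after the expression values had been seen.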

How the data were processed

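For each of 4 arrays the authors deposited log2 signals by probe set, computed by RMA in the Affymetrix Expression Console software per the labels; RMA corrects background, brings arrays to one distribution and summarizes probes. The sources used here give neither versions nor a genome build, nor which arrays were normalized together. The methods name an exon array, but the probe set numbers are those of the Human Gene 1.0 ST annotation. Among 33297 probe sets, 19460 had 1 symbol, 1754 several and 12083 none in that annotation. Those with 1 symbol were averaged per gene, giving 18417 genes. Gene IDs of 35 member probe sets were found in RefSeq (GRCh38.p14), with 0 changes of symbol.

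siEfp minus siControl was taken within each line and counted at 2-fold. The line difference was fitted with limma 3.58.1 in R 4.3.3 (lmFit and eBayes, siRNA as a term, adjusted p under 0.05, Benjamini-Hochberg). Nothing in the sources says whether the arrays of a line came from separate cultures. No group has a replicate array, so the p-values measure neither technical nor biological replicate spread. Counting and the limma fit were tested on simulated data. Counts and plots were made in Python 3.11.15 (pandas 2.3.3, numpy 2.4.6, matplotlib 3.10.9). Alternatives were median centring, a second quantile normalization, the brightest probe set, a 1.5-fold threshold, a size of 0.1, genes of at least median signal, and for limma no siRNA term, an intensity trend, adjusted p under 0.1 and leaving out each array. The members, lists and alternatives were chosen with earlier results of these data known, and leaving DLST out of the medians was added after seeing the values. Named genes are all members, TRIM25, markers, and genes at the ends of each list by mean difference over the lines.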

Additional observations from a re-analysis of the deposited data

Results flagged for a closer look

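With siEfp, 12 of the 35 measured members were lower in one line and higher in the other, beside 41.8% of all genes. The difference between the lines was not tested, since each line has 1 array per condition. Ishikawa minus HEC-1A, taken over the siEfp differences on the log2 scale, was 0.60 for OGDHL, 0.44 for SUCLG2, 0.42 for ME2, 0.38 for IDH3A, 0.35 for PDK3 and 0.31 for IDH3B. It was smaller for BCKDHA at 0.20, MDH2 at 0.19 and ACO1 at 0.12. PC at -0.58, PDK4 at -0.41 and DLD at -0.15 went the other way, lower in Ishikawa and higher in HEC-1A. PDK4, and OGDHL, PDK3 and PC in HEC-1A, had signals near or below the array median.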

How the results depend on the processing

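The siEfp differences of DLST, TRIM25 and the other members moved by less than 0.1 under a second quantile normalization. Median centring could only shift every gene alike, by -0.013 in Ishikawa and -0.010 in HEC-1A. Taking the brightest probe set could not change these differences, since TRIM25 and each measured member have 1 probe set. DLST was the sole member counted as lower at 2-fold and at 1.5-fold. The medians ranged from 0.05 to 0.12 in Ishikawa and from -0.06 to -0.03 in HEC-1A. With at least 0.1 asked for in both lines, 8 members were lower and 8 higher. Leaving out 1 array at a time, which also drops the siRNA term, gave 4 to 10 members higher in Ishikawa and 2 higher in HEC-1A each time, with 4 without the HEC-1A siControl array and 7 without the HEC-1A siEfp array. Over all genes the calls were then between 2627 and 3923, against 6486 with all arrays and the siRNA term and 5156 with all arrays and no siRNA term. A separate fit on the 9209 genes of at least median signal called 57.7% of them and 19 members. SUCLG2 lost its call without the siRNA term, with the brightest probe set and after a second quantile normalization, and OGDH lost it without the siRNA term. The labels give no replicate numbers to pair by, so arrays could be matched only by cell line or by siRNA. The line fit matches arrays by siRNA through its siRNA term, and a siEfp contrast with the line as a block was not run, since the siEfp differences chose the set.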
